A study of Homo sapiens with 40 samples.

Results

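Exon inclusion in cells running on the fast RNA polymerase II mutant E1126G was compared with inclusion in cells running on wild-type (WT) polymerase, by RNA-seq. The comparison comprised all 14650 exon events of 1 of the 7 tables deposited for the study, which hold 40858 events in all, and no event was left out. Each event is listed as an exon within a span between flanking exons, and it belongs to 1 of 6396 gene identifiers, of which 6281 have a symbol. The events covered 13601 distinct exons, since 1 exon can be listed with several pairs of flanking exons and some listed exons share an end with a longer one. Not all are simple internal exons. The 807-nt one of RPS3 covers its listed exons of 94 and 143 nt and the sequence between them, and a 115-nt one of SETDB1 has 0 nt of intron upstream. The question the comparison addresses is how faster transcription elongation bears on the inclusion of exons, and the events are described by exon length, reading frame, WT level and position.

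The E1126G group expressed a large subunit of the polymerase (Rpb1) that resists α-amanitin and carries the E1126G substitution, which is known to speed up elongation. The WT group expressed the α-amanitin-resistant subunit without it. Both were HEK293 Flp-in T-REx cells, a human embryonic kidney line with an inducible transgene at a defined genomic site. In both groups doxycycline switched the transgene on for 12 to 16 h, per the labels' protocols, and α-amanitin, which blocks the endogenous polymerase, was then present for 42 h. Every value in either group therefore comes from α-amanitin-treated cells with an induced transgene. RNA-seq of polyadenylated RNA, with paired 100 nt reads, had 2 libraries of E1126G cells and 2 of WT cells, which the labels call biological replicates. Genotype and cell identity were not checked here, because the tables hold inclusion ratios and no expression levels or read sequences.

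Splicing takes place largely while the polymerase is still transcribing. In the kinetic coupling model, the time between the emergence of an exon and that of the competing downstream splice site affects whether the exon is recognised before it is skipped. Vertebrate exons are mostly recognised across the exon, by factors that pair its 3′ and 5′ splice sites. Very short exons leave little room for this and often depend on enhancers in the neighbouring introns, while very long internal exons are rare.

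The table holds a pooled value per group. The depth is unknown, and so are the test behind the deposited p-values and whether the spread between the 2 libraries of a group entered it. Inclusion is given as the percentage the inclusion ratio implies. Whether that ratio already allows for an included exon having 2 junctions and a skipped one 1 is not stated in the sources used. If it does not, halving the ratio leaves each log2 change and call as it is but lowers the levels, those under 50% by more than 1.5 times. The 18-nt exon of GK, for instance, would be at 2.56% in E1126G cells and 77.1% in WT cells, the 63-nt exon of EPB41 at 7.44% in E1126G cells and 81.3% in WT cells, and the 456-nt exon of SRSF3 at 32.0% in E1126G cells and 5.47% in WT cells, from the authors' deposited table with the ratio halved. An event is called when its deposited p-value is under 0.05 after Benjamini-Hochberg adjustment across the 14650 events. Exons of a gene share reads and are not independent, so classes of exons are described by counts and medians and were not tested against each other.

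E1126G cells had lower inclusion at more exons than higher inclusion. Of the 14650 events 949 were called (6.48%), of which 323 were higher (2.2%) and 626 were lower (4.27%) in E1126G cells. The calls fell in 759 genes and in 916 distinct exons, and with overlapping exons merged they made 812 regions, 285 with a higher and 529 with a lower call. The median inclusion over all events was 89.7% in E1126G cells and 90.8% in WT cells, and 5795 of the 14650 events were over 95% in WT cells. The median log2 change of the inclusion ratio, E1126G over WT, was -0.08 over all events, and it lay between -1.51 and 1.39 for the events from the 10th to the 90th percentile. Called changes were moderate in size, with a median of 14.8 percentage points for the higher and -16.3 points for the lower events. A change of at least 10 points was reached by 188 higher and 416 lower events, and one of at least 40 points by 23 higher and 55 lower events.

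**Figure D1:**
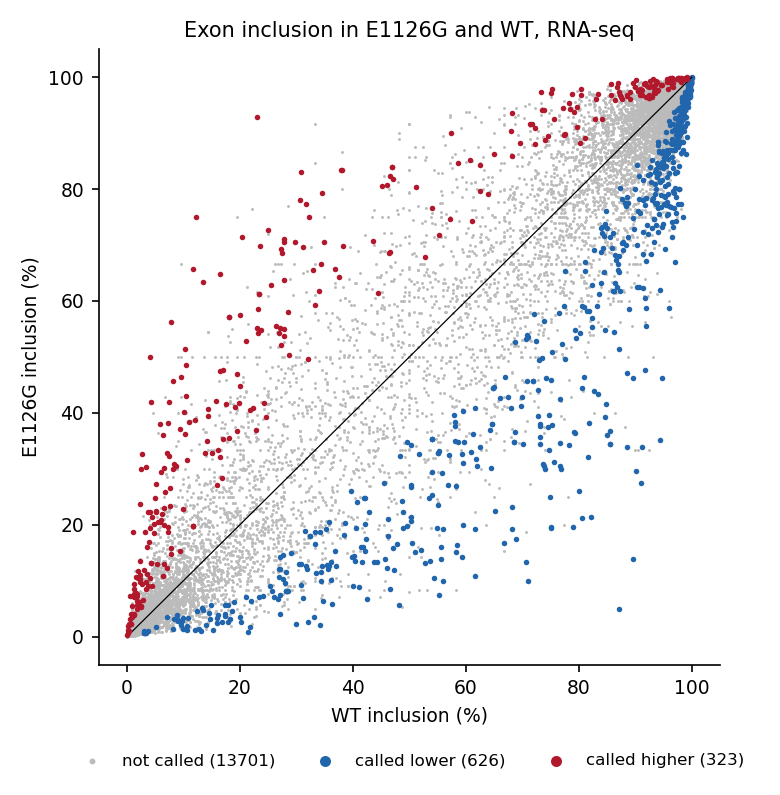
Inclusion (%) of each of the 14650 exon events in E1126G cells (vertical axis) against WT cells (horizontal axis), 1 point per event, with the line of equal inclusion. The 626 called lower events (blue) lie under the line over the whole range, and the 323 called higher events (red) lie above it.

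Exon length separated the directions. Of the 517 called exons of up to 100 nt, 427 were lower and 90 higher in E1126G cells, so that 82.6% were lower. Of the 432 called exons over 100 nt, 199 were lower and 233 higher (46.1% lower). The same ordering appeared over all events without regard to calls, with a median log2 change of -0.28 in the 6512 events of up to 100 nt and 0.07 in the 8138 longer ones. Across the 14650 events, length and log2 change had a Spearman correlation of 0.19, and across the 949 called ones 0.39. These are descriptions over exons that share genes and reads. In windows of 20 nt the median log2 change was -0.39 for exons of 41 to 60 nt and -0.17 for 81 to 100 nt. It was -0.03 in the next window, up to 120 nt, turned positive at 0.04 for 121 to 140 nt, and was 0.41 for 241 to 260 nt.

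By class, 38 of the 316 exons of 1 to 27 nt were called lower and 6 higher. Of the 1057 exons of 28 to 50 nt, 96 were called lower and 13 higher, and of the 5139 exons of 51 to 100 nt, 293 were lower and 71 higher. The 6521 exons of over 100 and up to 200 nt, the most common size, were nearly balanced at 164 lower and 167 higher. Among the 1029 exons of over 200 and under 300 nt the balance was the other way, with 17 lower and 43 higher. The 588 exons of 300 nt or more had 18 lower and 23 higher. The share of events called ran from 13.9% in the shortest class to 5.08% at over 100 and up to 200 nt, beside 6.48% of all events. How many reads stood behind an event of each class is unknown, and the part this played in the share called was not tested.

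**Figure D2:**
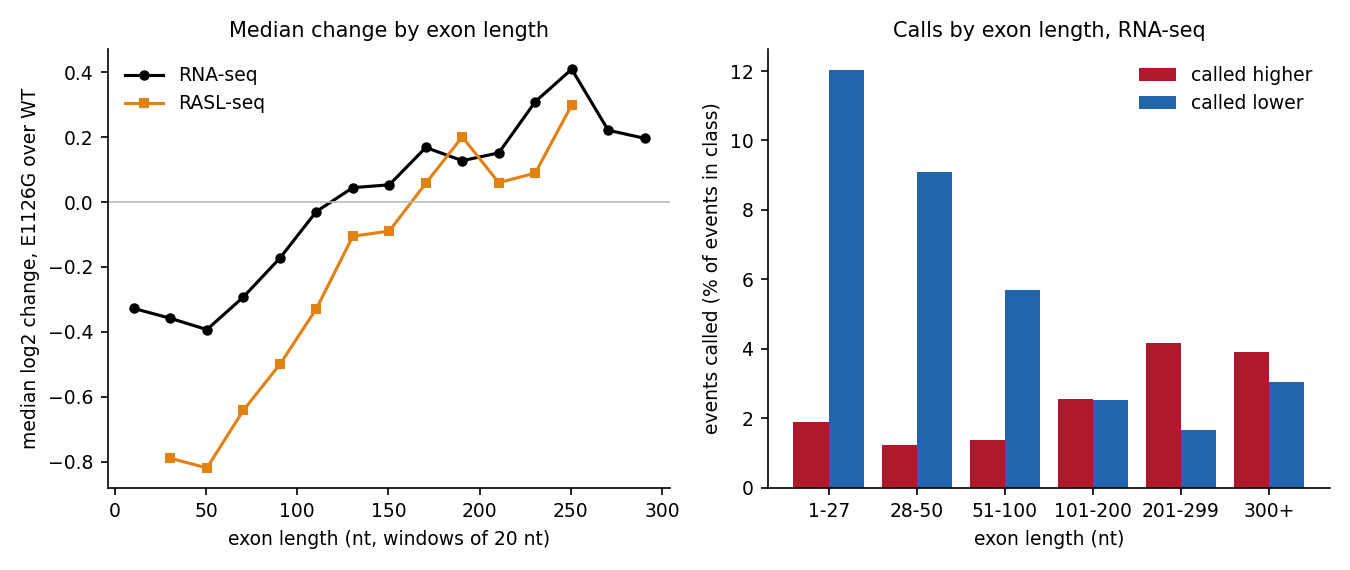
Left, median log2 change of the inclusion ratio (E1126G over WT) in windows of 20 nt of exon length, for RNA-seq (black) and for RASL-seq (orange), windows of at least 20 events. Right, called higher (red) and called lower (blue) events as a percentage of the RNA-seq events in each length class; the lower calls run from 12.0% at 1 to 27 nt to 1.65% at over 200 and under 300 nt.

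The shortest exons, microexons of up to 27 nt, held the largest decrease of the table. GK encodes glycerol kinase, and its 18-nt exon (chromosome X, 30715849 to 30715866, GRCh37) had an inclusion of 5.0% in E1126G cells, against 87.0% in WT cells, in the authors' deposited table. A 24-nt exon of SLIT2, a secreted guidance ligand (chromosome 4, 20526772 to 20526795), stood at 33.9% in E1126G cells and 91.3% in WT cells, a log2 change of -4.35 in the authors' deposited table. The 24-nt exon of PICALM, a clathrin assembly protein (chromosome 11, 85689113 to 85689136), stood at 19.5% in E1126G cells and 75.1% in WT cells in the authors' deposited table. All 3 exons lay above the midpoint in WT cells and below it in E1126G cells, which falls of this size require. Their Benjamini-Hochberg adjusted p-values were 5.03e-12, 4.35e-13 and 3.73e-14 in that order.

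Only 6 microexons were higher in E1126G cells, and their changes were smaller. The largest were in ZNF226, a zinc-finger gene, and in DIAPH2, a formin that assembles actin filaments. A 26-nt exon of ZNF226 had an inclusion of 68.8% in E1126G cells and 46.6% in WT cells, and the 21-nt exon of DIAPH2 had 97.1% in E1126G cells and 75.0% in WT cells, in the authors' deposited table. In TTLL3, a tubulin glycine ligase, a 26-nt exon was at 96.9% in E1126G cells and 85.6% in WT cells in the authors' deposited table. The Benjamini-Hochberg adjusted p-values of these exons, 0.0188, 0.0272 and 0.00756, were larger than those of the GK, SLIT2 and PICALM exons. Of the 43 exons under 10 nt, 1 was called, and it was lower.

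Exons of 28 to 50 nt changed in the same direction as the microexons. The 39-nt exon of LRP8, a receptor for reelin, was included at 21.4% in E1126G cells, against 82.1% in WT cells, in the authors' deposited table. In NF2, which encodes the tumour suppressor merlin, a 45-nt exon stood at 33.9% in E1126G cells and 88.6% in WT cells in the authors' deposited table. The 39-nt exon of UPF3B, a nonsense-mediated decay factor (chromosome X, 118974609 to 118974647), was included at 17.5% in E1126G cells, against 68.9% in WT cells, in the authors' deposited table. Its Benjamini-Hochberg adjusted p was 1.75e-23. Higher exons of this class included a 45-nt exon of SEPTIN6, a septin filament subunit, at 52.8% in E1126G cells and 21.1% in WT cells in the authors' deposited table. A 38-nt exon of MRPL55, a mitochondrial ribosomal protein, stood at 69.9% in E1126G cells and 38.3% in WT cells in the authors' deposited table. The third was a 30-nt exon of PPP3CC, a catalytic subunit of calcineurin, at 70.8% in E1126G cells and 43.6% in WT cells in the authors' deposited table.

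The class of 51 to 100 nt held the most decreases. EPB41 encodes protein 4.1R of the membrane skeleton, and its 63-nt exon (chromosome 1, 29386934 to 29386996) had a log2 change of -5.75, with 13.8% inclusion in E1126G cells and 89.7% in WT cells in the authors' deposited table. A 57-nt exon of CLSTN1, a calsyntenin that links cargo to kinesin, had 27.4% in E1126G cells and 91.1% in WT cells in the authors' deposited table. The 51-nt exon of TCF7L2, the transcription factor at the end of the Wnt pathway, had 10.0% in E1126G cells and 71.1% in WT cells in the authors' deposited table. All 3 exons, which were picked for the size of their fall, were above 70% in WT cells and below 30% in E1126G cells. The largest increases of the same class were smaller than these decreases. The 54-nt exon of MBNL2, a splicing regulator, reached 83.0% in E1126G cells, against 30.8% in WT cells, in the authors' deposited table. An 83-nt exon of ITSN1, an endocytic scaffold, had 63.3% in E1126G cells and 13.5% in WT cells in the authors' deposited table. In MAX, the dimerisation partner of MYC, an 85-nt exon had 56.3% in E1126G cells and 7.86% in WT cells in the authors' deposited table, with a Benjamini-Hochberg adjusted p of 3.3e-16.

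Over 100 and up to 200 nt the largest increases and decreases were of similar size. The largest increase of the table by percentage points was a 132-nt exon of MEGF6, a protein with EGF-like repeats, at 92.9% in E1126G cells and 23.1% in WT cells in the authors' deposited table. Its Benjamini-Hochberg adjusted p was only 0.0144. A 113-nt exon of EBF3, a transcription factor, had 65.7% in E1126G cells and 11.6% in WT cells in the authors' deposited table. The 162-nt exon of AUH, a mitochondrial enzyme of leucine breakdown, had 64.9% in E1126G cells and 16.4% in WT cells in the authors' deposited table. Among decreases, a 162-nt exon of PLA2G6, a calcium-independent phospholipase, had 29.6% in E1126G cells and 90.1% in WT cells in the authors' deposited table. ZNF678, a zinc-finger gene, had a 121-nt exon at 36.1% in E1126G cells and 85.0% in WT cells in the authors' deposited table. The 108-nt exon of GOLGB1, the Golgi protein giantin, fell as well, by 2.96 on the log2 scale in the authors' deposited table.

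In exons of over 200 and under 300 nt increases were the more common call. EFR3A, which anchors a lipid kinase at the plasma membrane, had a 230-nt exon at 75.0% in E1126G cells and 12.2% in WT cells in the authors' deposited table. In OBSL1, a cytoskeletal adaptor, a 276-nt exon was at 71.4% in E1126G cells and 20.4% in WT cells, and in STIL, needed for centriole duplication, a 209-nt exon was at 71.2% in E1126G cells and 27.8% in WT cells, in the authors' deposited table. The largest decrease of this class was a 241-nt exon of C6orf136 at 10.8% in E1126G cells and 61.5% in WT cells in the authors' deposited table. Exons of TEDC1, part of a tubulin complex of centrioles, and POFUT2, a fucosyltransferase, fell to 15.9% and 13.4% in E1126G cells, against 47.2% and 43.8% in WT cells, in the authors' deposited table.

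Among exons of 300 nt or more 23 were higher and 18 lower. The lower ones include exons of 1153 nt in RHOC, 807 nt in RPS3, 836 nt in CLK4 and 523 nt in RBM3. Each of these overlaps shorter called exons that fell, so it is not a separate change. The RBM3 one also covers called exons of 162 and 269 nt that rose. Among the higher ones, those of TRA2A and a 437-nt exon of NOL8 overlap a shorter exon that rose. Nested exons of 312 and 301 nt of TRA2A, an SR-related splicing activator (chromosome 7, ending at 23562051), were included at 83.3% and 79.3% in E1126G cells, against 37.9% and 34.5% in WT cells, in the authors' deposited table. They share an end and reads, so they count as 1 change. The 456-nt exon of SRSF3, an SR protein, had 48.5% in E1126G cells and 10.4% in WT cells in the authors' deposited table, with a Benjamini-Hochberg adjusted p of 3.38e-24. In SNRNP70, the U1 snRNP protein, a 1474-nt exon had 14.4% in E1126G cells and 40.1% in WT cells in the authors' deposited table. Decreases were also called for a 378-nt exon of ARHGAP44, a GTPase-activating protein, and a 1519-nt exon of UHRF2, a ubiquitin ligase. The ARHGAP44 exon had 67.2% in E1126G cells and 91.9% in WT cells, and the UHRF2 exon 11.6% in E1126G cells and 34.3% in WT cells, in the authors' deposited table.

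**Figure D3:**
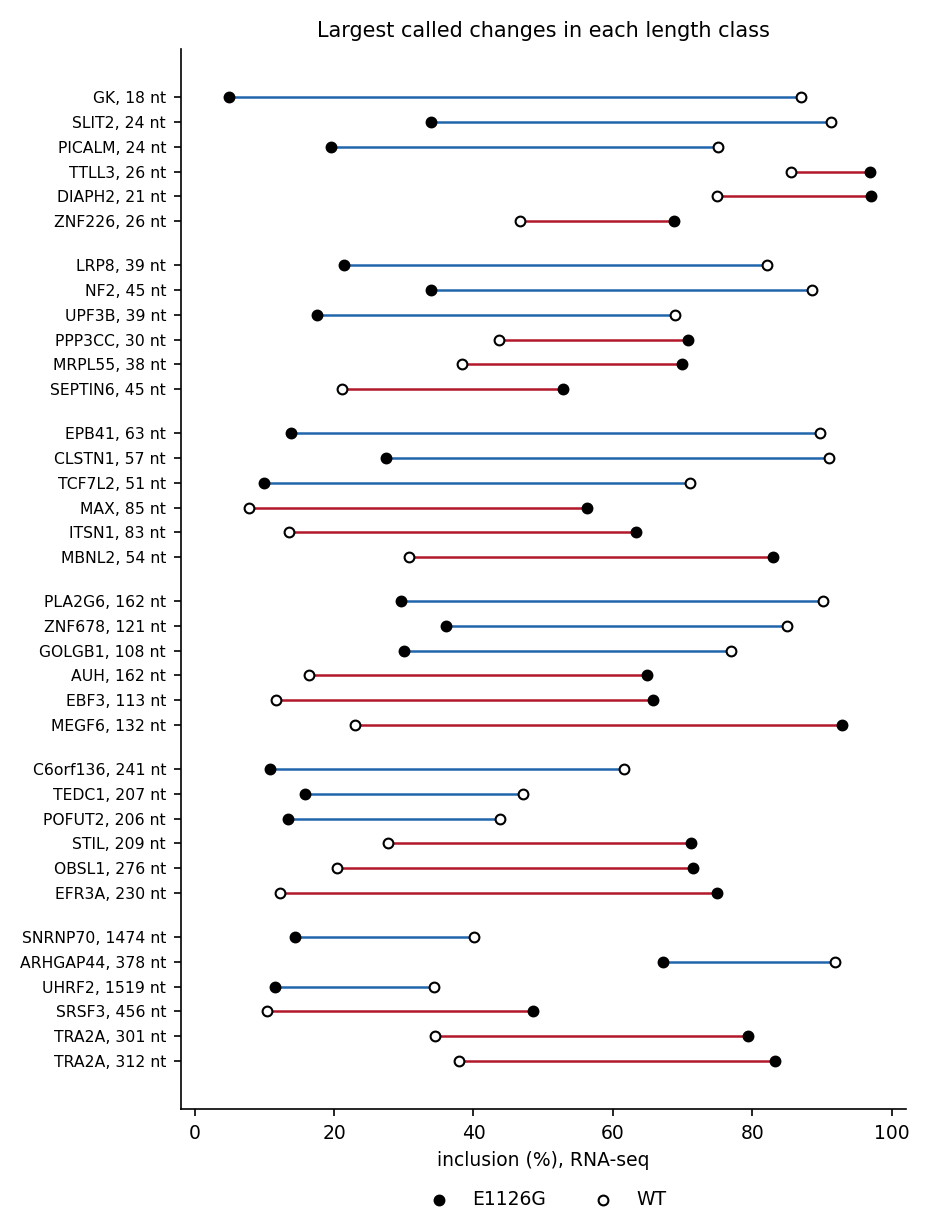
Inclusion (%) in E1126G cells (filled) and WT cells (open) for the 3 largest called decreases (blue lines) and the 3 largest called increases (red lines) of each length class, shortest class at the top. The widest gaps are those of GK, at 5.0% in E1126G cells and 87.0% in WT cells, and of EPB41, at 13.8% in E1126G cells and 89.7% in WT cells, while the 3 microexon increases are at most 22.2 points.

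Short exons were also less often included in WT cells, so length and WT level were separated. The median inclusion of exons of 1 to 27 nt was 42.8% in E1126G cells and 56.3% in WT cells, and of exons of over 100 and up to 200 nt 91.8% in E1126G cells and 92.2% in WT cells. Among exons with a WT inclusion of 20% to 80% alone, the median log2 change was -0.80 at 1 to 27 nt, -0.49 at 28 to 50 nt and -0.42 at 51 to 100 nt. It was 0.04 at over 100 and up to 200 nt, 0.33 at over 200 and under 300 nt and 0.50 at 300 nt or more. The length order was thus present within this middle range of WT inclusion. In that range 16, 37 and 103 events were lower in the 3 shorter classes and 2, 7 and 17 higher. In the 3 longer classes 50, 9 and 7 were lower and 42, 17 and 13 higher.

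By WT level, calls at exons mostly skipped in WT cells were mainly higher in E1126G cells, and calls at exons mostly included in WT cells mainly lower. Under 5% WT inclusion 64 events were higher and 6 lower, and from 5% to 20% 73 were higher and 39 lower. From 20% to 50% 60 were higher and 97 lower, and from 50% to 80% 38 were higher and 125 lower. From 80% to 95% 55 were higher and 152 lower, and over 95% 33 were higher and 207 lower. The share called was highest in the middle, at 11.6% from 20% to 50% and 11.4% from 50% to 80%, and it was 4.14% over 95%. The WT value enters both the class and the change, so error in it would by itself give such an order, and the part of this was not tested. The order with length was seen within most WT levels, as the map of change by length and WT level shows. From 50% to 80% WT inclusion, for instance, the median log2 change was -0.86 at 1 to 27 nt and 0.32 at over 200 and under 300 nt.

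**Figure D4:**
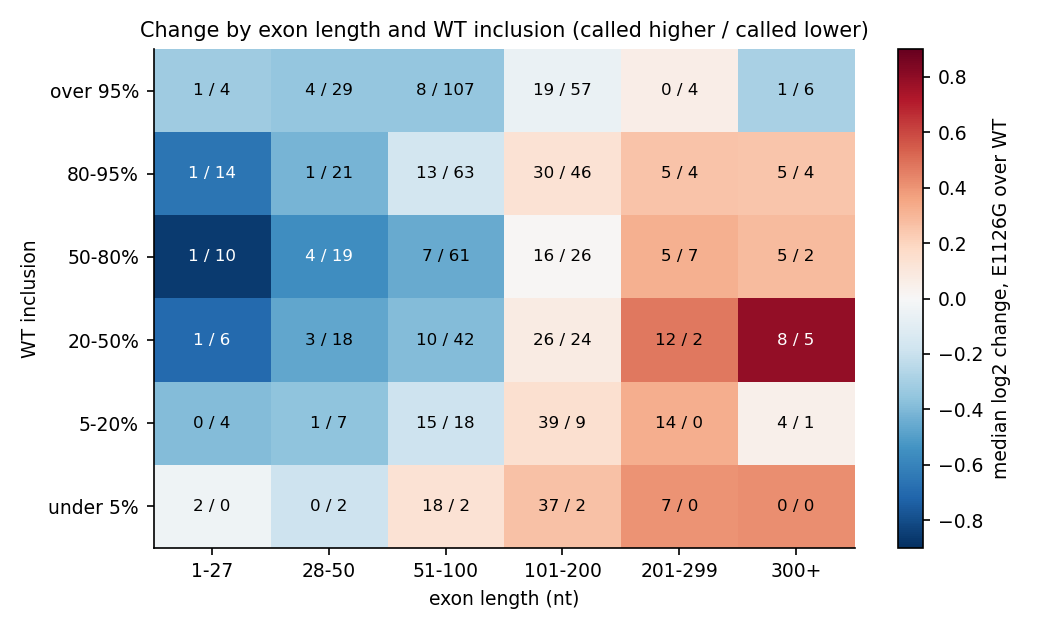
Median log2 change of the inclusion ratio, E1126G over WT (colour), for events in each class of exon length (horizontal axis, nt) and WT inclusion (vertical axis), with the number called higher / called lower in each cell. Cells of up to 50 nt are blue or near white in every row and cells of over 200 and under 300 nt are red or near white, with medians from 0.06 to 0.47.

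Exons whose length is a multiple of 3, which leave the reading frame intact when skipped, were called about as often as the others, with a higher share of lower calls. Of 6366 such events 431 were called (6.77%), 126 higher and 305 lower, with a median log2 change of -0.11. Of 8284 events that are not a multiple of 3, 518 were called (6.25%), 197 higher and 321 lower, with a median of -0.06. The lower share of calls was thus 70.8% and 62.0%. Multiples of 3 were also the shorter group, with a median of 102 nt against 112 nt. Within length classes the median log2 change of multiples of 3 and of the others was -0.42 and -0.27 at 1 to 27 nt, -0.48 and -0.32 at 28 to 50 nt, and -0.27 and -0.23 at 51 to 100 nt. For longer exons it was 0.04 and 0.05 at over 100 and up to 200 nt, 0.27 and 0.19 at over 200 and under 300 nt, and 0.15 and 0.08 at 300 nt or more. Among called exons of 51 to 100 nt, 86.7% of the multiples of 3 and 75.7% of the others were lower, and among those of 28 to 50 nt 88.3% and 87.8%. At over 200 and under 300 nt the order was the other way, with 15.8% of 19 called multiples of 3 and 34.1% of 41 others lower. Microexons stood apart in composition, since 221 of 316 were multiples of 3, and of the 44 called 32 were. The 3 largest microexon decreases were multiples of 3, at 18 nt in GK and 24 nt in SLIT2 and PICALM, as was the increase in DIAPH2, at 21 nt, while the increases in ZNF226 and TTLL3, at 26 nt, were not. Of the 6 higher microexons 3 were multiples of 3. Whether an event lies in coding sequence is not recorded in the table.

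The span between the flanking exons, that is both introns and the exon, had a median of 4991 nt. Calls over short spans were split about evenly, with 60 higher and 55 lower under 1 kb. From 1 to 3 kb 109 were higher and 152 lower, from 3 to 10 kb 103 were higher and 287 lower, and from 10 to 30 kb 41 were higher and 112 lower. Over 30 kb 10 were higher and 20 lower, and only 2.62% of 1145 events were called there, beside 6.48% of all. Within the class of 51 to 100 nt the lower share of calls was 63.5% under 1 kb, 74.7% from 1 to 3 kb, 85.2% from 3 to 10 kb, 91.7% from 10 to 30 kb and 86.7% over 30 kb. The median log2 change of that class was -0.12 under 1 kb and -0.38 over 30 kb. For exons of over 100 and up to 200 nt the medians ran only from 0.08 under 1 kb to 0.00 over 30 kb. Over all events span and log2 change had a Spearman correlation of -0.04.

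The balance of the introns on either side was also compared. Where the downstream intron was more than 2 times the upstream one, 126 calls were higher and 165 lower (56.7% lower). Where the upstream intron was the longer by that factor, 95 were higher and 223 lower (70.1% lower), and within a factor of 2 102 were higher and 238 lower (70.0% lower). In the class of over 200 and under 300 nt, exons with the longer downstream intron had 25 higher and 4 lower calls, and those with the longer upstream intron 5 higher and 7 lower. The EFR3A exon, which rose, is of the second kind, with 4271 nt of intron upstream and 760 nt downstream. The OBSL1 and STIL exons of the same class, which also rose, have the longer intron downstream, at 619 and 2585 nt, against 204 and 879 nt upstream. The GK and SLIT2 exons, which fell, have the longer intron downstream, at 2664 and 3776 nt, against 1048 and 971 nt upstream. The PICALM exon, which fell as well, has the longer intron upstream, at 3035 nt, against 1387 nt downstream.

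Position along the gene was read as the order of tested exons in the 1810 genes with at least 3 of them. The first tested exon was called in 5.64% of genes, 34 higher and 68 lower, and the last in 8.67%, 52 higher and 105 lower. Of the 3995 exons in between 7.28% were called, 88 higher and 203 lower. The lower share of calls was 66.7% for first, 69.8% for inner and 66.9% for last exons. Tested exons are a part of a gene's exons, so this order is not the distance from the promoter.

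The same exons were looked up in RASL-seq, an assay of probe pairs ligated across selected exon junctions, with 3 libraries of E1126G cells and 3 of WT cells under the same treatment. These are other libraries of the same cell lines, and probe efficiency differs between junctions, so levels are not compared between the assays. Of the 2312 RASL-seq events 47.5% were called, 13.9% higher and 33.6% lower, with a median log2 change of -0.37. In all 1841 pairs of events shared an exon, and 226 of them were called in RNA-seq. Of the 166 lower in RNA-seq, 139 were called lower on RASL-seq, none higher and 27 not called, and all 166 had a log2 change below 0 there. Of the 60 higher in RNA-seq, 42 were called higher, 1 lower and 17 not called. Across the 226 called pairs the log2 changes of the assays had a Pearson's r of 0.84, and across all 1841 pairs 0.58, with genes and probes shared among points.

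PICALM, SLIT2, UPF3B and MAX were among the exons called the same way on both assays. On RASL-seq the 24-nt PICALM exon had 36.8% inclusion in E1126G cells and 75.2% in WT cells in the authors' deposited table. The UPF3B exon had 22.7% in E1126G cells and 68.1% in WT cells, and the SLIT2 exon 15.7% in E1126G cells and 73.0% in WT cells, in the authors' deposited table. The MAX exon had 21.9% in E1126G cells and 2.93% in WT cells in the authors' deposited table.

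Some large RNA-seq changes were not called, or went the other way, on RASL-seq. The PLA2G6 exon stood at 21.7% in E1126G cells and 22.4% in WT cells there, with a Benjamini-Hochberg adjusted p of 0.917, in the authors' deposited table. The DIAPH2 exon, higher in RNA-seq, was lower on RASL-seq, at 92.7% in E1126G cells and 98.8% in WT cells in the authors' deposited table. It was the only exon of the 226 called in opposite directions, with Benjamini-Hochberg adjusted p-values of 0.0272 in RNA-seq and 0.0121 on RASL-seq.

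**Figure D5:**
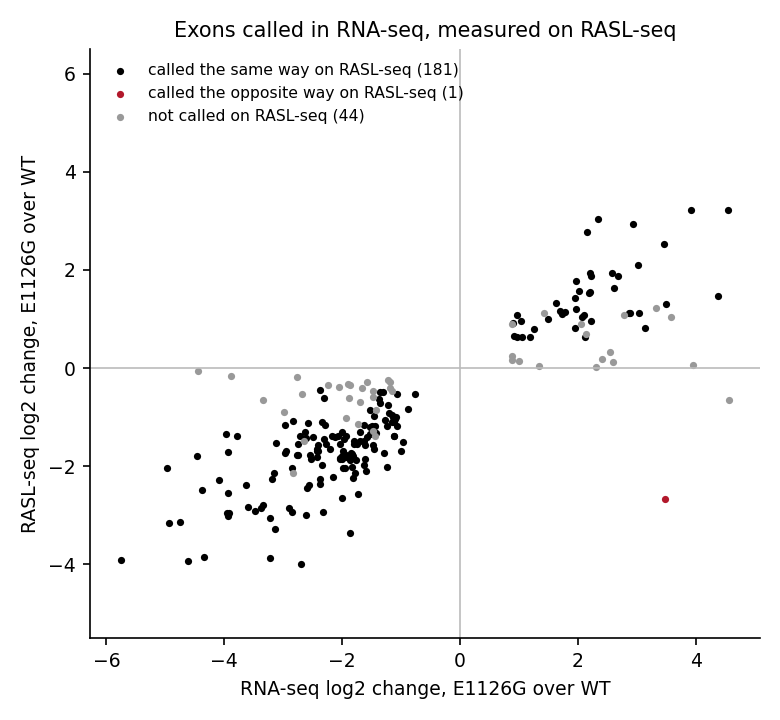
Log2 change of the inclusion ratio, E1126G over WT, on RASL-seq (vertical axis) against RNA-seq (horizontal axis) for the 226 events called in RNA-seq whose exon was also tested on RASL-seq, 1 point per pair. The 181 pairs called the same way (black) lie in the lower left and upper right, 44 (grey) were not called on RASL-seq, and 1, the DIAPH2 exon (red), was called the opposite way.

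RASL-seq showed the length order as well. Its median log2 change was -0.88 at 1 to 27 nt, -0.75 at 28 to 50 nt, -0.60 at 51 to 100 nt, -0.13 at over 100 and up to 200 nt and 0.12 at over 200 and under 300 nt. For exons of 300 nt or more it was -0.11. On RASL-seq 33 microexons were lower and 6 higher, while 21 exons of over 200 and under 300 nt were lower and 43 higher. Relative to its own median of -0.37, exons of up to 100 nt were low and longer ones high. Exons that RASL-seq tested and RNA-seq did not gave medians of -1.03, -0.78, -0.56, -0.09, 0.17 and -0.36 in the same order of classes, the first from 14 events and the last from 24. On RASL-seq the median of a 20-nt window was first above 0 at 161 to 180 nt, against 121 to 140 nt in RNA-seq.

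Gene groups were described by lists chosen with earlier results of these data known, beside 6.48% of all events called. The median exon length of a list ran from 73 nt in Wnt and TCF/LEF genes to 108 nt in chromatin regulators, beside 108 nt over all events. Of all called events of up to 100 nt 82.6% were lower, so calls of that size in a list are set beside this share. The part of exon length in the direction of a list was not tested. The list of SR proteins, which bind exonic enhancers and promote exon recognition, with related factors and the kinases that phosphorylate them, had 15 of 56 events called in 11 of 20 genes, 11 higher and 4 lower. Its median log2 change was 0.30. Of its 7 called events of up to 100 nt only 2 were lower, and of its 8 over 100 nt 6 were higher. Of the 11 higher events 3 are nested rows of TRA2A, and 2 of the 4 lower ones are nested rows of CLK4. In SRSF6 a 268-nt exon had 97.3% inclusion in E1126G cells and 73.4% in WT cells in the authors' deposited table. In TRA2B, the paralog of TRA2A, a 276-nt exon had 63.8% in E1126G cells and 27.8% in WT cells in the authors' deposited table. Alternative exons of this family often carry a premature stop codon, which the table does not record. Within the list, all 4 CLK kinases had a higher exon of 88 to 97 nt. For CLK1 it stood at 71.7% in E1126G cells and 55.2% in WT cells, and for CLK4 at 90.4% in E1126G cells and 68.0% in WT cells, in the authors' deposited table. On RASL-seq the CLK1 exon was called higher, while the 97-nt exon of CLK3 was not called, with a log2 change of 0.18. The CLK4 exons that fell were of 59 and 836 nt, and exons of SRSF10 and SRSF11 fell too.

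The hnRNPs and other splicing regulators had 15 of 136 events called in 10 of 43 genes, 6 higher and 9 lower, with a median of -0.09. Of their 12 called events of up to 100 nt 8 were lower. In HNRNPD a 107-nt exon was higher, at 20.2% in E1126G cells and 4.77% in WT cells, while a 57-nt exon was lower, at 66.6% in E1126G cells and 86.9% in WT cells, in the authors' deposited table. A 105-nt exon of HNRNPDL had 69.9% in E1126G cells and 23.6% in WT cells in the authors' deposited table. PTBP1, RBM5, HNRNPM and HNRNPA2B1 had exons of 36 to 78 nt that fell. A longer exon fell too, of 376 nt in TIAL1, at 20.4% in E1126G cells and 38.6% in WT cells in the authors' deposited table. Short exons that rose were those of HNRNPK, of 72 nt, and MBNL2, of 54 nt. In PCBP2 a 39-nt exon fell and a 42-nt exon rose, each listed with more than 1 pair of flanks, and each change was under 10 points. The core spliceosome list had 4 of 62 events called in 4 of 32 genes, 1 higher and 3 lower, with a median of -0.04. Its share called, 6.45%, was near that of all events.

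Membrane skeleton genes and spectraplakins, which tie the cell cortex to actin and microtubules, had 15 of 85 events called in 8 of 22 genes, 2 higher and 13 lower, with a median of -0.36. Of their 12 called events of up to 100 nt 11 were lower, beside 82.6% of all called events of that size. SPTAN1, the α chain of spectrin, had 3 exons that fell. Its 15-nt exon stood at 24.3% in E1126G cells and 48.6% in WT cells, its 18-nt exon at 84.9% in E1126G cells and 94.8% in WT cells, and its 60-nt exon at 43.8% in E1126G cells and 82.6% in WT cells, in the authors' deposited table. In MACF1 an 18-nt exon had 30.4% in E1126G cells and 76.7% in WT cells, and in DST, a related spectraplakin, an 18-nt exon had 88.4% in E1126G cells and 98.1% in WT cells, in the authors' deposited table. A 315-nt exon of EPB41L2, a relative of EPB41, went the other way, at 94.5% in E1126G cells and 77.1% in WT cells in the authors' deposited table. NF2 supplied 3 of the 15 called events, which overlap each other.

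Actin and adhesion genes had 16 of 114 events called in 13 of 35 genes, 3 higher and 13 lower, with a median of -0.23. Of their 14 called events of up to 100 nt 12 were lower, beside 82.6% of all called events of that size. The 57-nt exon of INF2, a formin, had 35.1% in E1126G cells and 94.3% in WT cells in the authors' deposited table. The 63-nt exon of ENAH, which extends actin filaments at the leading edge, had 7.47% in E1126G cells and 55.3% in WT cells in the authors' deposited table. In ITGA6, an integrin chain, a 130-nt exon had 41.7% in E1126G cells and 84.9% in WT cells in the authors' deposited table. The higher exons included a 94-nt exon of FMNL2, a formin, at 99.5% in E1126G cells and 90.1% in WT cells in the authors' deposited table.

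Genes of clathrin endocytosis and vesicle traffic had 11 of 99 events called in 10 of 33 genes, 3 higher and 8 lower, with a median of -0.29. Of their 9 called events of up to 100 nt 7 were lower, beside 82.6% of all called events of that size. Clathrin itself was touched at small exons of both chains. A 21-nt exon of CLTC, the heavy chain, had 9.0% in E1126G cells and 25.4% in WT cells, and a 36-nt exon of CLTA, a light chain, 1.08% in E1126G cells and 3.79% in WT cells, in the authors' deposited table. A 12-nt exon of DNM2, the membrane-cutting GTPase dynamin, had 57.7% in E1126G cells and 72.0% in WT cells in the authors' deposited table. In NUMB, an endocytic adaptor that antagonises Notch, a 33-nt exon had 32.6% in E1126G cells and 59.4% in WT cells in the authors' deposited table.

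Axon guidance and polarity kinase genes had 6 of 55 events called in 4 of 19 genes, all lower, with a median of -0.49. All 6 called events were in exons of up to 100 nt, where 82.6% of all calls were lower. The polarity kinase MARK3 held 3 of them. Its 27-nt exon, listed with 2 pairs of flanks, had 8.55% in E1126G cells and 46.5% in WT cells over the longer span, and 65.1% in E1126G cells and 87.1% in WT cells over the shorter one, in the authors' deposited table. A 66-nt exon of its relative BRSK2 had 13.3% in E1126G cells and 70.6% in WT cells in the authors' deposited table. Wnt and TCF/LEF genes had 4 of 31 events called in 3 of 14 genes, all lower, with a median of -0.68. Besides TCF7L2 they were CSNK1D and CSNK1A1, casein kinases, with a 64-nt exon of CSNK1D at 78.1% in E1126G cells and 92.9% in WT cells in the authors' deposited table. The 4 called Wnt and TCF/LEF events were likewise all in exons of up to 100 nt.

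Chromatin regulators had 9 of 87 events called in 7 of 31 genes, 4 higher and 5 lower, with a median of 0.13. All 4 higher events were in exons over 100 nt and 4 of the 5 lower ones in exons of up to 100 nt. In EZH2, the methyltransferase of Polycomb complex PRC2, a 179-nt exon had 32.9% in E1126G cells and 15.0% in WT cells, and in SUZ12, its partner, a 69-nt exon had 89.9% in E1126G cells and 97.9% in WT cells, in the authors' deposited table. Polymerase II elongation and termination genes had 5 of 57 events called in 4 of 25 genes, 2 higher and 3 lower, with a median of 0.04. A 249-nt exon of SUPT16H, a subunit of the histone chaperone FACT, had 11.0% in E1126G cells and 2.28% in WT cells in the authors' deposited table.

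Several genes held more than 1 called exon. Of the 130 genes with at least 2, 81 had lower exons only, 25 had higher exons only and 24 had both. In 20 of these 24 genes the lower exons were the shorter ones by median length. PI4KB, a lipid kinase of the Golgi, had a 45-nt exon at 0.862% in E1126G cells and 21.4% in WT cells and a 202-nt exon at 80.6% in E1126G cells and 45.1% in WT cells, in the authors' deposited table. KIF23, a kinesin of cytokinesis, had a 42-nt exon at 39.6% in E1126G cells and 74.7% in WT cells and a 312-nt exon at 94.2% in E1126G cells and 73.8% in WT cells, in the authors' deposited table. KLC1, a kinesin light chain, had a 67-nt exon at 42.8% in E1126G cells and 70.0% in WT cells and a 131-nt exon at 94.1% in E1126G cells and 73.4% in WT cells, in the authors' deposited table. On RASL-seq the 45-nt PI4KB and 42-nt KIF23 exons were called lower, while the 131-nt KLC1 exon was not called, with a log2 change of 0.32. In B3GALNT2, a glycosyltransferase, 1 exon fell and a longer one, of 123 nt, rose, and in NOL8, a nucleolar protein, a 114-nt exon fell and nested exons of 195 and 437 nt rose.

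The genes with at least 4 called events were mostly cases of nested exons. RHOC, a small GTPase, had 5 overlapping events, all lower, and RPS3, a ribosomal protein, had 4, each of which moved by under 1 percentage point at about 99% inclusion. FAM3A had 4 lower events in 2 groups of nested exons. In MRPL55, 4 events of 2 exon regions rose and a 67-nt exon fell. In RBM3, a cold-inducible RNA-binding protein, nested exons of 162 and 269 nt rose and 3 nested exons of 70 to 523 nt, which share a start, fell. DMKN, dermokine, had 4 lower events and 1 higher one. The 7 events of NPIPA9, all lower, lie in near-identical copies on chromosome 16, where reads can be split between copies, so their values are uncertain.

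The slow mutant R749H was measured against the same WT libraries, so its values can only be set beside those of E1126G. In R749H cells 15.1% of 14358 events were called, 7.07% higher and 8.04% lower. The median log2 change of R749H over WT was -0.23 at 1 to 27 nt, -0.40 at 28 to 50 nt and -0.17 at 51 to 100 nt. It was 0.11 at over 100 and up to 200 nt, 0.39 at over 200 and under 300 nt and 0.26 at 300 nt or more. The GK exon stood at 5.0% in E1126G cells, 31.0% in R749H cells and 87.0% in WT cells in the authors' deposited table. The SRSF3 exon stood at 48.5% in E1126G cells, 83.7% in R749H cells and 10.4% in WT cells, and the NF2 exon at 33.9% in E1126G cells, 72.7% in R749H cells and 88.6% in WT cells, in the authors' deposited table. In R749H cells the GK and SRSF3 exons were called against WT, while the NF2 exon was not (Benjamini-Hochberg adjusted p 0.194). The difference between the mutants was not tested.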

How the data were processed

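RNA-seq reads of each library were mapped separately with TopHat 1.4.1, per the labels' protocols, and the submitters' processing notes also name Bowtie 0.12.7, edgeR 3.7.17 and the GRCh37 (hg19) build, without saying which made the table. The table that the authors deposited has 3 values per event: the inclusion to exclusion ratio in WT as a natural log, its change in E1126G as a log2, and an unadjusted p-value. It holds no value per library, so no SD is given and precision per event is unknown. The deposited values were checked: read as a natural log, the WT value gave a quotient of integers for 94.4% of events, with a relative tolerance of 1e-09 and denominators of 300 or less, against 0.396% read as base 2. Read as E1126G over WT, the log2 change gave one for 95.2% of events, against 22.5% with the opposite sign. RASL-seq and R749H tables have the same columns.

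The WT ratio is the exponential of the first value, the E1126G ratio that times 2 to the power of the second, and inclusion is the ratio over 1 plus the ratio. Inclusion makes 2 junctions and skipping 1; whether the deposited ratio allows for this is not stated in the sources used, and no correction was made. The Benjamini-Hochberg adjustment ran over each whole table, in Python 3.11.15 with numpy 2.4.6, pandas 2.3.3 and scipy 1.17.1, tested on simulated data. Named exons are the 3 largest called falls and rises of each length class, called exons of listed genes, genes with at least 4 called events, and the 5 genes with the widest gap between a higher and a lower exon. Members, classes and lists were chosen with earlier results of these data known. Coordinates are 1-based. Alternatives were other thresholds and adjustments, 1 row per exon or per gene, limits on WT level and size of change, centring on the median and a halved ratio.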

Additional observations from a re-analysis of the deposited data

How the results depend on the processing

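No paired analysis was possible because the tables hold no value per library, and for the same reason leaving out each library was not run. Against 949 called events, 502 were called at a threshold of 0.01, 411 with the Benjamini-Yekutieli adjustment, 604 with a change of at least 10 points and 379 with 1 row per gene, which leaves fewer events. The lower share of calls was 61.2% with 1 row per gene, against 66.0%, and over 100 nt it was 37.1%, against 46.1%; the cause was not tested. Up to 100 nt it stayed between 80.9% and 85.7%. At 0.01 in both assays 86.4% of RNA-seq calls tested on RASL-seq were called the same way, against 80.1%, and 82.1% when both flanks had to match, an alternative chosen after seeing the data. With the ratio halved, to allow for inclusion having 2 junctions, exons change WT class, and the lower share of calls became 48.3% at 5% to 20% WT inclusion and 78.3% at 20% to 50%, against 34.8% and 61.8%. Of the other recomputed counts, shares and medians, 38 moved beyond their margin and 225 did not. The smaller side became the larger in 3 near-even splits: lower calls were 53.4% at over 100 and up to 200 nt with a change of at least 10 points and 54.3% at 20% to 80% WT inclusion, against 49.5%, and 52.4% under 1 kb with 1 row per gene, against 47.8%. Of the 36 exons named by length class, 9 were not called at 0.01 and 13 not under Benjamini-Yekutieli. Depth, the test behind the p-values and the spread between libraries are unknown, and 2475 events had an unadjusted p under 0.05.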
